A study of Mus musculus with 26 samples.

Results

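The Slc25a genes encode the mitochondrial carrier family, and 39 genes with such a symbol are listed in RNA-seq tables of mouse striatum from models of Huntington's disease. They were taken by symbol alone from 14833 genes listed in at least 1 of 5 deposited tables, and 37 of them are in all 5. The tables cover 26 libraries in 9 groups. R6/1 mice, which carry a transgene with the first exon of human huntingtin and a long CAG repeat, were sampled at 4 weeks and at 8 weeks, each beside wild-type (WT) mice of that age (3 libraries per group). CHL2 mice, knock-ins that carry a long CAG repeat in the mouse huntingtin gene, were sampled at 1 year beside WT mice (3 libraries per group). The other groups are 10 weeks old and had all received an adeno-associated virus (AAV): Elk-1-AAV R6/1 mice (4 libraries), control-AAV R6/1 mice (2 libraries) and control-AAV WT mice (2 libraries). The authors' group names for the control-AAV mice read mCherry. Elk-1 belongs to the ETS transcription factors. The sources used here do not give the strain background, the promoter in the AAV, or whether a library holds 1 animal or several, and the control-AAV groups are small.

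Carriers of this family sit mostly in the inner mitochondrial membrane and move nucleotides, phosphate, amino acids, organic acids, cofactors and metals between the cytosol and the matrix. They bring ADP and phosphate to ATP synthase and export ATP, and they carry the malate-aspartate shuttle that passes cytosolic reducing equivalents to the respiratory chain. In brain this traffic serves neurons with high firing costs and also the exchange of glutamate between neurons and astrocytes. Mitochondrial energy supply has long been studied in Huntington's disease, in which the spiny projection neurons of the striatum are the most affected cells.

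Each table gives 1 FPKM value (fragments per kilobase of transcript, scaled to the mapped fragments) per group and gene, so libraries within a group cannot be seen and their depth is unknown. Rises and falls are named only for a q below 0.05 in the authors' deposited table, which is adjusted over all its rows. Since the labels do not tie libraries to single animals, the authors' p-values may rest on technical spread. An approximate error of a member's log2 fold change was taken from its own p-value, and its median over the members was 0.12, 0.15 and 0.13 for the 4-week, 8-week and CHL2 tables. It was 0.22 between the control-AAV groups and 0.20 for Elk-1 AAV. All 10 markers of spiny projection neurons are listed in each table, at no less than 19.5 FPKM in any pool. In such bulk tissue fewer cells of a type and less RNA per cell cannot be told apart.

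Few carriers were called in these tables. Of 39 members 1 passed the authors' test in 1 of the 5 comparisons, Slc25a25, which fell in R6/1 striatum at 8 weeks. In that comparison 6.12% of 14320 genes passed, and 1 of 39 members cannot be told from that share. Slc25a25 is an ATP-magnesium/phosphate carrier that is switched on by cytosolic calcium. It stood at 18.8 FPKM in R6/1 mice, against 26.2 in WT mice, a log2 fold change of -0.48 with an implied 95% interval of -0.74 to -0.21 (p = 0.00045, q = 0.0111 in the authors' deposited table). The table lists it on chromosome 2 of mm9 from 32270006 to 32310996. That position is the one listed for Naif1 too, which had 0.945 FPKM in R6/1 mice and 0.876 in WT mice, so reads of the 2 genes may not be fully separate.

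Slc25a25 has several annotated starts, and its single FPKM value adds their transcripts. The windows run from 250 bases before to 50 bases after a start, on the minus strand of GRCm38.p6, as given by RefSeq. A window at a start between the upstream and the downstream one, chr2:32431102-32431401, holds neither of the motifs marked below and is not shown. The ETS core was picked because Elk-1 is the factor under study. Shown are the upstream and the downstream start, which each hold 1 marked motif. Capitals mark the ETS core CCGGAA in the first and the cAMP response element TGACGTCA in the second; the cAMP motif was chosen after the sequences had been seen.
Slc25a25 upstream start, chr2:32451421-32451720: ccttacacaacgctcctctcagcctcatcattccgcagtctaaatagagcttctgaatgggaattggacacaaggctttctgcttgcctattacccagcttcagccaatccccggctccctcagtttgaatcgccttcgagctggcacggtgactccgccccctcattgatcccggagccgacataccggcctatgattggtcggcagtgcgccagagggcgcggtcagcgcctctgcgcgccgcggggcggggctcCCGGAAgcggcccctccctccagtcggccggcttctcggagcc
Slc25a25 downstream start, chr2:32424017-32424316: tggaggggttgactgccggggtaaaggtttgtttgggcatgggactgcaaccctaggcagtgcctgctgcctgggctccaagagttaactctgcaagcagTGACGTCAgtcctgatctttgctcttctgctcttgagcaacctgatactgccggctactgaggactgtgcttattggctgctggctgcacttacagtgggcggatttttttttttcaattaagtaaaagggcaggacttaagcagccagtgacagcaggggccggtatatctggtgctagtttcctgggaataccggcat
The letters CCGGAA, read on both strands, occur in 10 of 40 windows of listed members (25%), against 14.9% of 32851 windows of all genes. The windows belong to the 31 members with an entry, and those with the letters are Slc25a1, Slc25a3, Slc25a4, Slc25a11, Slc25a17, Slc25a20, Slc25a25, Slc25a38, Slc25a40 and Slc25a47. TGACGTCA occurs in 2 of the 40 windows (Slc25a25 and Slc25a36) and in 1.79% of all windows. Since this motif was chosen after the Slc25a25 sequences had been seen, its count among members cannot be weighed against that share. The palindromic NRF1 motif is in 0 of 40 and in 0.971% of all windows. A match describes these letters and is not evidence of a bound site.

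In the other tables Slc25a25 was lower in R6/1, CHL2 and Elk-1-AAV R6/1 mice than in the mice they were set against, without passing. It stood at 22.1 FPKM in R6/1 mice and 24.7 in WT mice at 4 weeks (q = 0.999 in the authors' deposited table). CHL2 mice had 24.1 FPKM and their WT mice 26.1 (q = 0.794 in the authors' deposited table). Control-AAV R6/1 mice had 26.0 FPKM, against 29.6 in control-AAV WT mice (q = 0.927 in the authors' deposited table). Under Elk-1 AAV the R6/1 mice had 25.4 FPKM, against 26.6 in control-AAV R6/1 mice (q = 0.999 in the authors' deposited table). The R6/1 pool at 8 weeks was thus the lowest of all groups, and whether the change at 8 weeks differed from that at the other ages was not tested. The fall at 8 weeks came with a fall of all 10 markers of spiny projection neurons, whose summed level was 1258 FPKM in R6/1 mice and 3454 in WT mice, and their part in it was not tested. Those 10 markers also fell in CHL2 (1561 against 3060 FPKM summed) and in control-AAV R6/1 mice (1006 against 2390). Slc25a25 was lower in both without being called. The implied 95% interval of its log2 fold change was -0.35 to 0.12 in CHL2 and -0.58 to 0.20 between the control-AAV groups. The part of the marker genes' cells in these values was not tested either.

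**Figure D1:**
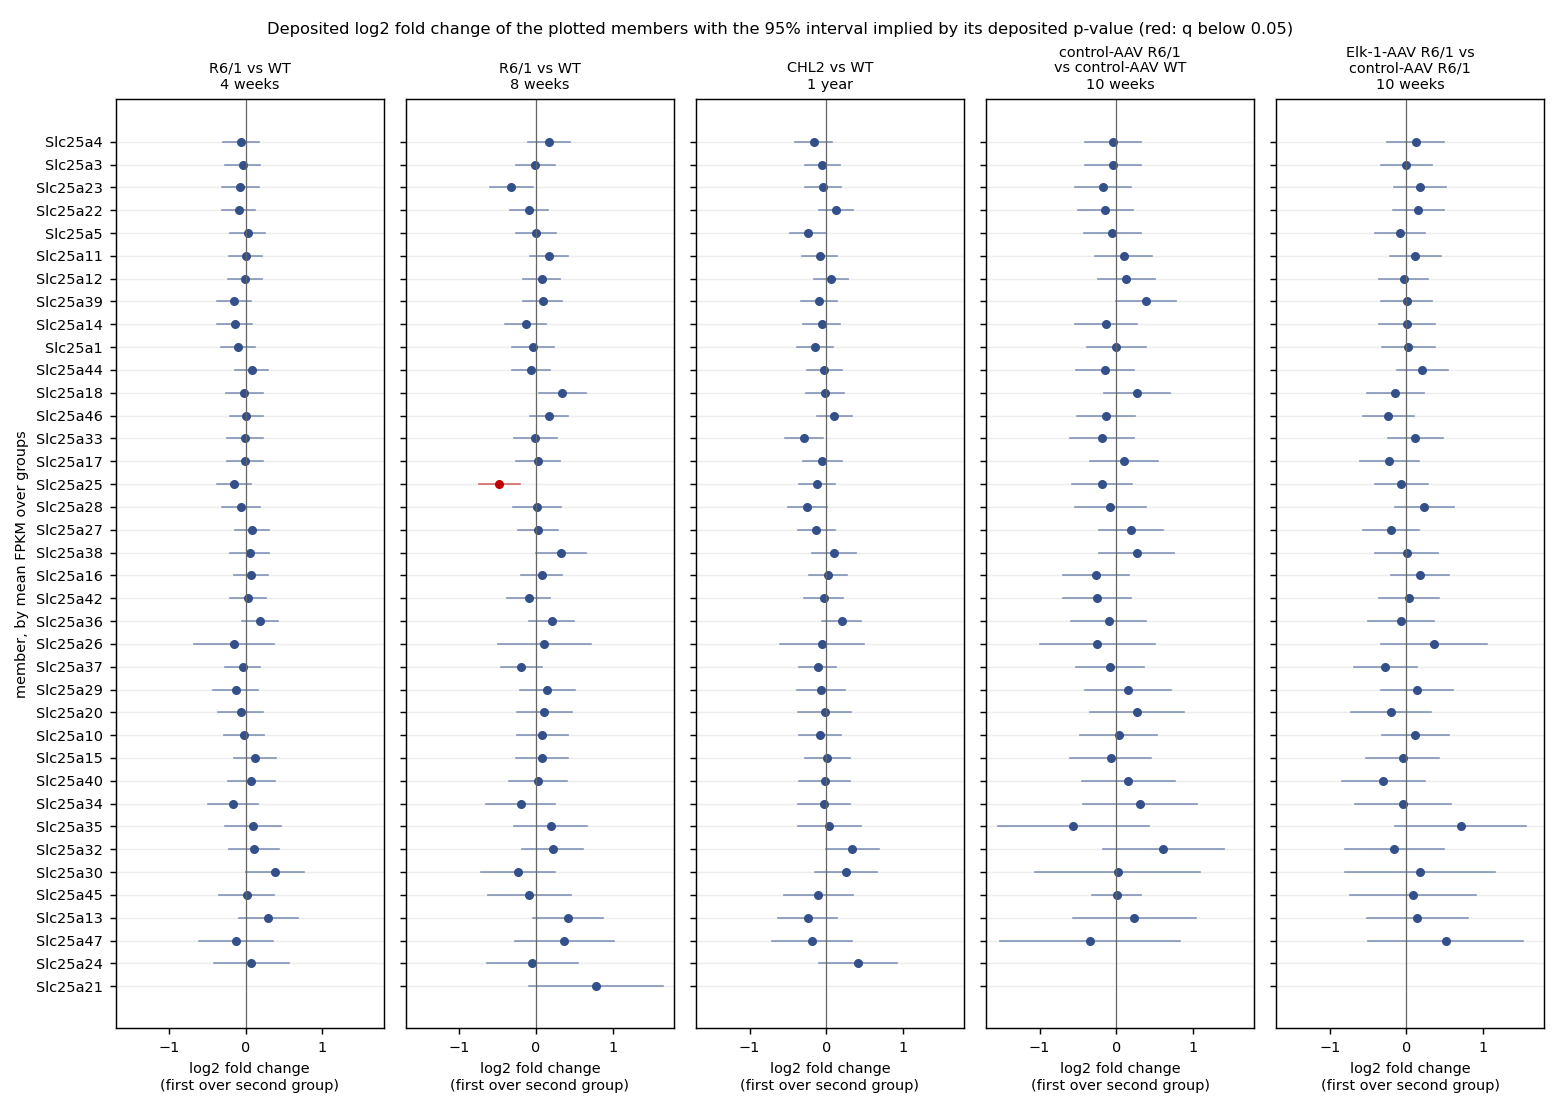
Deposited log2 fold change (x axis, first-named over second-named group) of each plotted member (y axis, by mean FPKM) in the 5 comparisons, with the 95% interval implied by the deposited p-value. The red point at -0.48, Slc25a25 at 8 weeks, is the only member with q below 0.05.

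The share of members that passed can be set against that of all genes in the same table. At 8 weeks 0 of 39 members rose and 1 fell, while 0.789% of 14320 genes rose and 5.34% fell (6.12% in either direction). At 4 weeks 0 of 38 passed, against 0.468% of all genes, and in CHL2 0 of 38, against 3.65%. Between the control-AAV groups 0 of 37 passed, against 3.24%, and for Elk-1 AAV 0 of 37, against 0.575%. With 0 or 1 members called, these shares cannot be told from those of all genes. At an unadjusted p below 0.05 in the authors' deposited tables, which come from Cuffdiff, the only test available, there were 1 member at 4 weeks, 4 at 8 weeks, 2 in CHL2 and 0 in both AAV comparisons. These make up 2.63%, 10.3%, 5.26%, 0% and 0% of the members. The same counts over all genes were 5.36%, 14.3%, 13.3%, 10.7% and 4.91%.

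Sizes of change were small, with medians near or below those over all genes. The fold between the 2 groups lay between 0.8 and 1.25 for 37 of 38 members at 4 weeks and 32 of 39 at 8 weeks. The count was 36 of 38 for CHL2, 33 of 37 for control-AAV R6/1 and 34 of 37 for Elk-1 AAV. The same count over all genes was not made. The median size of change, on the log2(FPKM + 1) scale and without its sign, was 0.064 at 4 weeks, against 0.074 over all genes. It was 0.097 against 0.11 at 8 weeks and 0.080 against 0.11 in CHL2. Between the control-AAV groups it was 0.14 against 0.17, and for Elk-1 AAV 0.12 against 0.12. With its sign the median was -0.014 at 4 weeks and 0.037 at 8 weeks. It was -0.045 for CHL2, -0.042 for control-AAV R6/1 and 0.025 for Elk-1 AAV, while over all genes it was between 0.0012 and 0.014. Rescaling the groups without small RNA rows turned the sign of this median everywhere but at 8 weeks, so the family as a whole is given no direction.

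The level of the carriers in striatum spanned a wide range that all groups shared. Averaged over the groups that list them, 3 members lay at or above 100 FPKM, 22 between 10 and 100, 12 between 1 and 10 and 2 below 1 (Slc25a24, listed in 6 groups, and Slc25a21, listed in 2). Slc25a4, the ADP/ATP carrier of excitable tissues, led with a mean of 632 FPKM, followed by the phosphate carrier Slc25a3 with 279 and by Slc25a23, another calcium-regulated ATP-magnesium/phosphate carrier, with 133. The glutamate carrier Slc25a22 (96.6) and the second ADP/ATP carrier Slc25a5 (96.3) came next. Slc25a4 alone held 30.6% of the summed FPKM of the members in R6/1 mice at 4 weeks and 30.9% in their WT mice, and 33.4% and 30.4% at 8 weeks. For 34 of the 37 members listed in every table, the highest and the lowest of the 9 groups differed by less than 2-fold. The exceptions were Slc25a5, Slc25a30 and Slc25a32, at 2.44, 2.66 and 2.28 times, each with its highest and lowest group in different tables. Tables were normalized separately, so levels set across them describe order and not change.

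**Figure D2:**
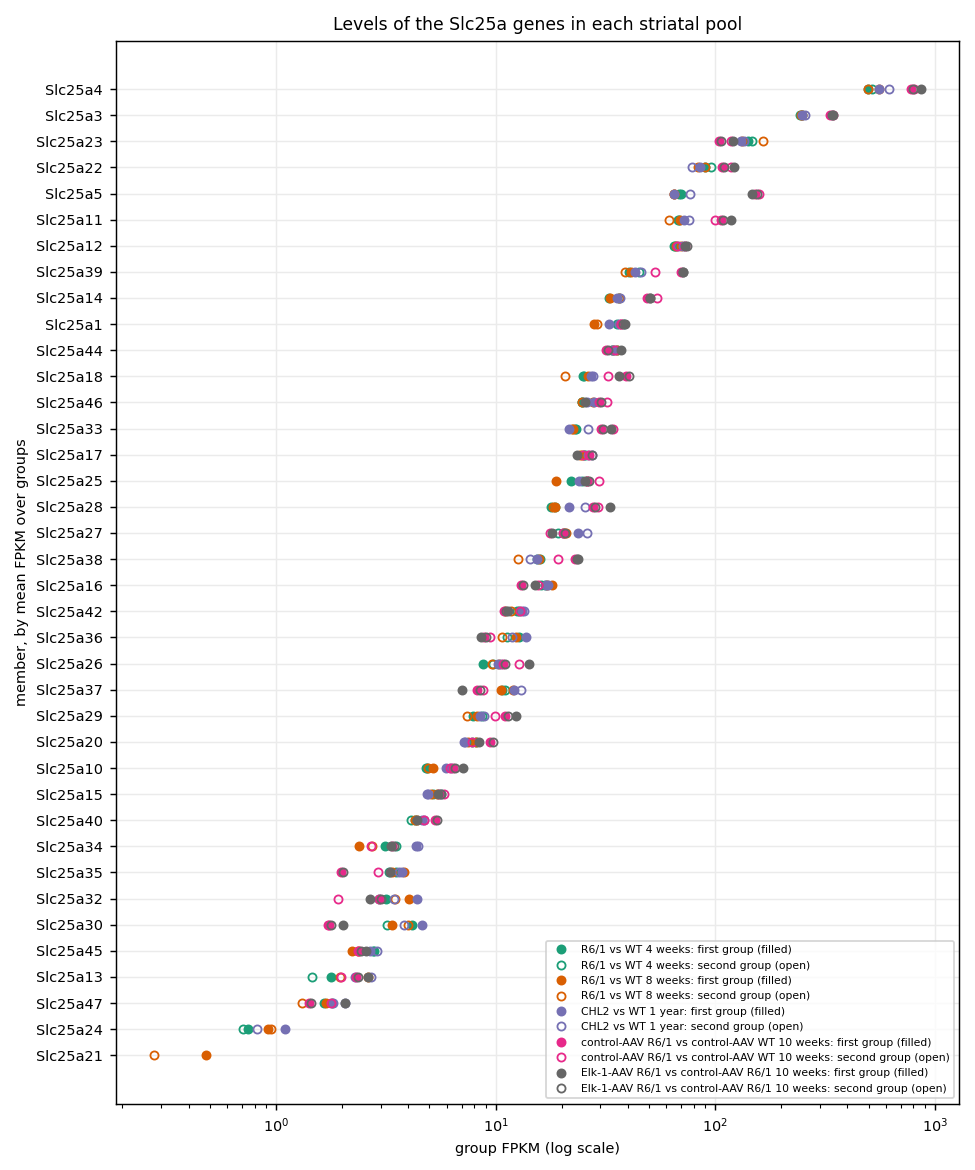
Group FPKM (x axis, log scale) of each plotted member (y axis, by mean over the groups), with 1 colour per comparison, filled for its first-named and open for its second-named group. Slc25a4 stands at the top with a mean of 632 FPKM, and the points of one member stay close together beside the span between members.

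Adenine nucleotide and phosphate carriers bring the substrates of ATP synthase and export its product. Slc25a4 had 558 FPKM in R6/1 mice and 496 in WT mice at 8 weeks (q = 0.754 in the authors' deposited table), and 496 against 517 at 4 weeks. CHL2 mice had 556 FPKM and WT mice 621 (q = 0.675 in the authors' deposited table), control-AAV R6/1 mice 779 and control-AAV WT mice 802, and Elk-1-AAV R6/1 mice 866 and control-AAV R6/1 mice 797. None of these pairs passed. Slc25a5, the ADP/ATP carrier of dividing and many other cells, had 64.8 FPKM in CHL2 mice and 76.5 in WT mice (p = 0.042, q = 0.344 in the authors' deposited table) and did not pass; the pairs at 4 and 8 weeks differed by less, 69.7 against 68.7 and 65.3 against 65.2. Slc25a5 had 152 FPKM in control-AAV R6/1 mice and 158 in control-AAV WT mice, and 147 in Elk-1-AAV R6/1 mice against 156 in control-AAV R6/1 mice. The 2 ADP/ATP carriers are close paralogs, and how the authors' counting split shared reads is not stated. Slc25a3 had 243 FPKM in R6/1 and 250 in WT mice at 4 weeks, 246 and 248 at 8 weeks, and 248 in CHL2 against 257 in WT mice. It had 335 FPKM in control-AAV R6/1 and 345 in control-AAV WT mice, and 342 in Elk-1-AAV R6/1 against 343 in control-AAV R6/1 mice. Its log2 fold change was within 0.050 of 0 in every comparison of the authors' deposited tables, and its lowest q there was 0.946.

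Among the calcium-regulated ATP-magnesium/phosphate carriers, Slc25a23 had 132 FPKM in R6/1 mice and 165 in WT mice at 8 weeks (log2 fold change -0.32, p = 0.026, q = 0.233 in the authors' deposited table), short of the threshold. It had 141 against 148 at 4 weeks, 132 against 136 in CHL2 and 104 against 118 between the control-AAV groups, and 121 in Elk-1-AAV R6/1 mice against 107 in control-AAV R6/1 mice. Slc25a24, the third of this kind, was near 1 FPKM (0.919 in R6/1 and 0.949 in WT mice at 8 weeks) and is not listed in the AAV tables. Slc25a42, a coenzyme A carrier, and Slc25a17, its peroxisomal counterpart, differed little at 8 weeks. At that age Slc25a42 had 11.1 FPKM in R6/1 mice and 11.8 in WT mice, and Slc25a17 had 24.7 and 24.3.

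Of the carriers of the malate-aspartate shuttle and of glutamate 0 passed. Slc25a12 (aralar), the aspartate/glutamate carrier of brain and muscle, had its 9 groups close together: they ran from 64.9 to 73.1 FPKM, with 69.7 in R6/1 mice and 66.2 in WT mice at 8 weeks. Its paralog Slc25a13 (citrin), which dominates in liver, had 2.63 FPKM in R6/1 mice and 1.97 in WT mice at 8 weeks (log2 fold change 0.42, p = 0.072, q = 0.434 in the authors' deposited table). Slc25a11, the oxoglutarate/malate carrier that closes the shuttle, had 69.5 FPKM in R6/1 mice and 61.7 in WT mice at that age (q = 0.665 in the authors' deposited table).

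Slc25a22 and Slc25a18 both import glutamate, and in brain the second is enriched in astrocytes. Slc25a18 had 26.3 FPKM in R6/1 mice and 20.7 in WT mice at 8 weeks (log2 fold change 0.34, p = 0.025, q = 0.229 in the authors' deposited table), and 39.4 in control-AAV R6/1 mice against 32.6 in control-AAV WT mice; neither passed. Of the 7 astrocyte markers 0 were called at 8 weeks, and their sum was 673 FPKM in R6/1 mice and 772 in WT mice. Between the control-AAV groups 0 were called, with 4 higher and 3 lower in R6/1 mice. Their sum there was 619 FPKM in control-AAV R6/1 mice and 657 in control-AAV WT mice. The part of astrocytes in the values of Slc25a18 was not tested. Slc25a22 had 83.8 FPKM in R6/1 mice and 89.6 in WT mice at 8 weeks (q = 0.925 in the authors' deposited table), and 89.7 and 95.5 at 4 weeks. It had 85.7 FPKM in CHL2 and 78.6 in WT mice (q = 0.745 in the authors' deposited table). Control-AAV R6/1 mice had 107 and control-AAV WT mice 118, and Elk-1-AAV R6/1 mice 122 against 109 in control-AAV R6/1 mice; none of these passed. Slc25a38, the glycine carrier of heme synthesis, had 15.8 FPKM in R6/1 mice and 12.6 in WT mice at 8 weeks (log2 fold change 0.33, p = 0.048, q = 0.339 in the authors' deposited table). The value of Slc25a38 was higher in the model in all 4 genotype tables and passed in none.

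The other amino acid carriers stayed near their controls at 8 weeks. Slc25a44, which imports branched-chain amino acids, had 34.2 FPKM in R6/1 mice and 35.9 in WT mice at 8 weeks. The ornithine carrier Slc25a15 had 5.39 and 5.08, and Slc25a29, a carrier of basic amino acids, 8.23 and 7.42. Of the organic acid carriers, the citrate carrier Slc25a1 had 28.1 FPKM in R6/1 and 28.8 in WT mice at 8 weeks and 32.8 in CHL2 against 36.3 in WT mice. The dicarboxylate carrier Slc25a10 had 5.21 FPKM and 4.92, and Slc25a20, which imports acylcarnitines for fatty acid oxidation, 8.12 and 7.53, in R6/1 and WT mice at 8 weeks. Slc25a21, the oxodicarboxylate carrier, is listed only at 8 weeks, at 0.478 FPKM in R6/1 and 0.278 in WT mice (q = 0.458 in the authors' deposited table), too low to weigh.

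The carriers related to uncoupling proteins include the neuronal members Slc25a14 and Slc25a27. Slc25a14 had 33.2 FPKM in R6/1 mice and 36.5 in WT mice at 8 weeks, and Slc25a27 had 20.9 and 20.6. Slc25a30, a low member of the same branch, was the only one under an unadjusted p of 0.05 at 4 weeks: 4.18 FPKM in R6/1 mice and 3.20 in WT mice (log2 fold change 0.38, p = 0.046, q = 0.912 in the authors' deposited table). At 8 weeks the order was the other way, 3.38 FPKM in R6/1 mice and 3.97 in WT mice.

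Iron enters mitochondria through the mitoferrins, for heme and iron-sulfur clusters. Slc25a28, the widely expressed one, had 21.6 FPKM in CHL2 mice and 25.6 in WT mice (log2 fold change -0.24, p = 0.067, q = 0.432 in the authors' deposited table). Slc25a37, the erythroid one, had 12.1 and 13.1. Slc25a39, a glutathione carrier, had 69.9 FPKM in control-AAV R6/1 mice and 53.4 in control-AAV WT mice (log2 fold change 0.39, p = 0.052, q = 0.475 in the authors' deposited table), while Elk-1-AAV R6/1 mice had 71.7 FPKM and control-AAV R6/1 mice 71.6 in the second AAV table. Its paralog Slc25a40 was lower, with 5.28 FPKM in control-AAV R6/1 mice and 4.74 in control-AAV WT mice.

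Pyrimidine nucleotides are carried by Slc25a33 and Slc25a36, needed for mitochondrial DNA and RNA synthesis. Slc25a33 had 21.7 FPKM in CHL2 mice and 26.5 in WT mice (log2 fold change -0.29, p = 0.023, q = 0.246 in the authors' deposited table), and Slc25a36 had 13.7 and 11.9 (q = 0.550 in the authors' deposited table); neither passed. Slc25a32, a folate and FAD carrier, had 4.37 FPKM in CHL2 mice and 3.45 in WT mice (p = 0.054, q = 0.390 in the authors' deposited table) and 2.93 in control-AAV R6/1 mice against 1.91 in control-AAV WT mice. Slc25a16, linked to coenzyme A transport (17.3 FPKM in CHL2 and 17.0 in WT mice), and the S-adenosylmethionine carrier Slc25a26 (10.2 and 10.6) did not pass in CHL2. Slc25a26 is listed at the same position as Lrig1, so its reads are uncertain too.

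The remaining members are Slc25a46, an outer membrane protein of mitochondrial fusion and fission, and Slc25a34, Slc25a35, Slc25a45 and Slc25a47, whose substrates are less settled. Slc25a46 had 27.8 FPKM in R6/1 mice and 24.8 in WT mice at 8 weeks, and 25.6 in Elk-1-AAV R6/1 mice against 30.2 in control-AAV R6/1 mice. Slc25a35 had the largest change for Elk-1 AAV among members at 1 FPKM or more, 3.29 FPKM in Elk-1-AAV R6/1 mice and 2.02 in control-AAV R6/1 mice (log2 fold change 0.71, p = 0.107, q = 0.999 in the authors' deposited table). In the genotype table the same control-AAV R6/1 pool, at 1.97 FPKM, stood below control-AAV WT mice at 2.91 (log2 change -0.56 with q = 0.878 in the authors' deposited table). The 2 AAV tables share that pool, which is listed 1.02 times higher in the second for each member, so a low value in it moves both comparisons. Slc25a47 had 1.70 FPKM in R6/1 and 1.31 in WT mice at 8 weeks, Slc25a34 had 2.39 and 2.74, and Slc25a45 had 2.22 and 2.35.

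The 3 largest positive and negative log2 fold changes were taken in each comparison among members at a mean of 1 FPKM or more, and those not given above follow. At 4 weeks they were higher values of Slc25a30, Slc25a13 (1.79 FPKM in R6/1 and 1.46 in WT mice) and Slc25a36 (12.8 and 11.2), and lower values of Slc25a34 (3.14 and 3.53), Slc25a39 (40.5 and 45.1) and Slc25a25, with q of 0.912 for Slc25a30 and 0.999 for the others in the authors' deposited table. At 8 weeks they were higher values of Slc25a13, Slc25a47 and Slc25a18 and lower values of Slc25a25, which passed, Slc25a23 and Slc25a30. In CHL2 Slc25a30 had 4.603 FPKM, against 3.83 in WT mice, and Slc25a13 had 2.29, against 2.70 (q = 0.683 and 0.698 in the authors' deposited table). Between the control-AAV groups Slc25a34 had 3.37 FPKM in R6/1 and 2.72 in WT mice, Slc25a16 had 13.04 and 15.67, and Slc25a47 had 1.41 and 1.79. For Elk-1 AAV Slc25a26 had 14.2 FPKM in Elk-1-AAV R6/1 mice and 11.04 in control-AAV R6/1 mice, Slc25a47 had 2.06 and 1.45, Slc25a40 had 4.39 and 5.40, and Slc25a37 had 6.997 and 8.471. Slc25a25 at 8 weeks was the only one of these to pass.

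**Figure D3:**
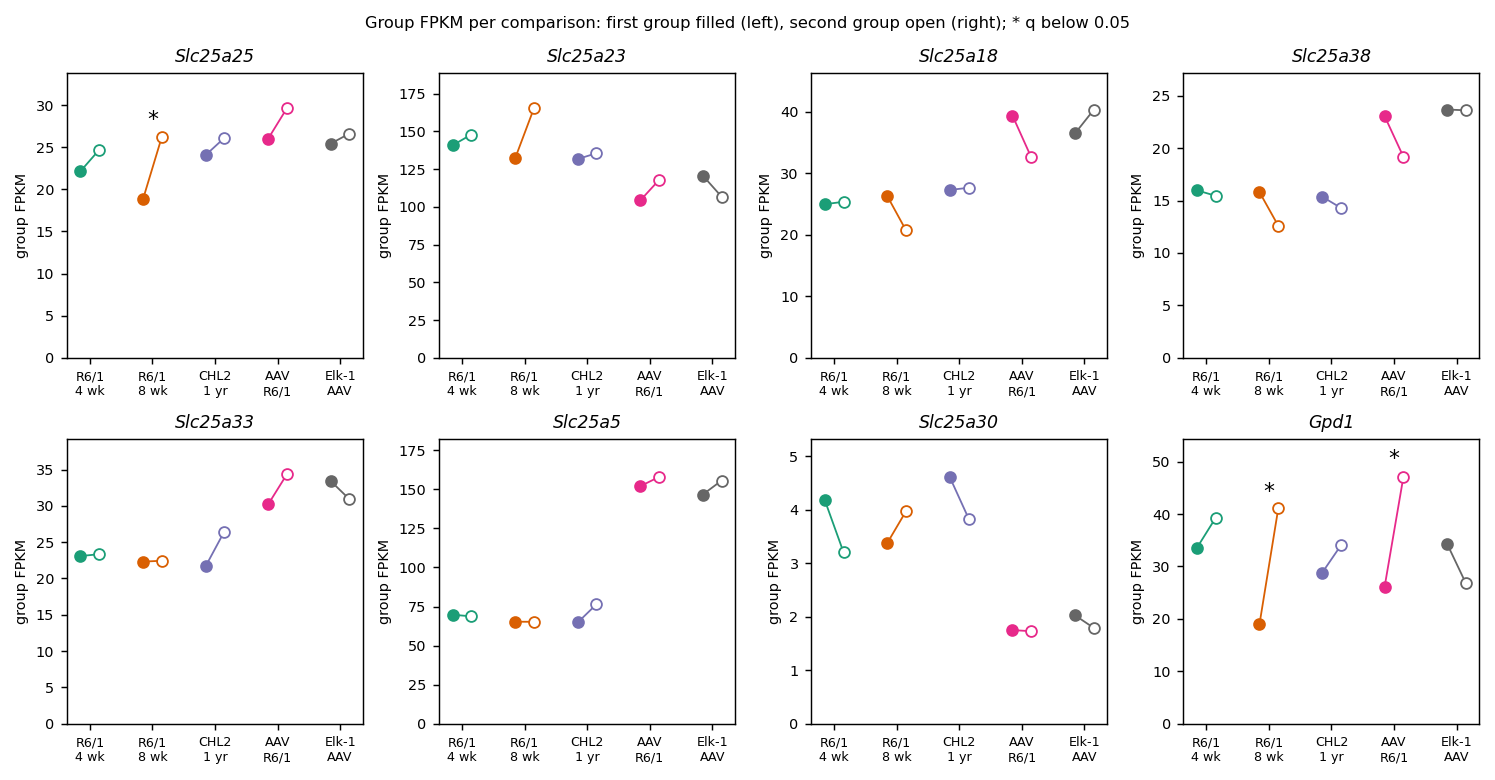
Group FPKM (y axis, from 0) of 7 members and of Gpd1 in the 5 comparisons, with the first-named group filled on the left and the second open on the right; stars mark q below 0.05. Slc25a25 carries a star at 8 weeks, and Gpd1 at 8 weeks and between the control-AAV groups.

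Related carriers that divide a task kept their order in every pool. Slc25a4 exceeded Slc25a5 by 7.11 to 8.58 times in the R6/1, CHL2 and WT pools without AAV, and by 5.08 to 5.91 times in the AAV pools. Slc25a12 exceeded Slc25a13 by 25.2 to 45.0 times, and Slc25a22 exceeded Slc25a18 by 2.71 to 4.33 times. For the last pair the ratio was 3.59 in R6/1 and 3.77 in WT mice at 4 weeks, 3.19 and 4.33 at 8 weeks, and 2.71 in control-AAV R6/1 and 3.62 in control-AAV WT mice. It went the other way in CHL2, 3.14 against 2.84 in WT mice, and was 3.34 in Elk-1-AAV R6/1 and 2.71 in control-AAV R6/1 mice. Slc25a28 exceeded Slc25a37 by 1.52 to 1.96 times in the pools without AAV, and by 4.76 times in Elk-1-AAV R6/1 mice against 3.34 times in control-AAV R6/1 mice. Slc25a33 exceeded Slc25a36 by 1.58 times in CHL2 mice and 2.22 times in their WT mice. These ratios come from 1 pooled value per gene and group and have no error.

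**Figure D4:**
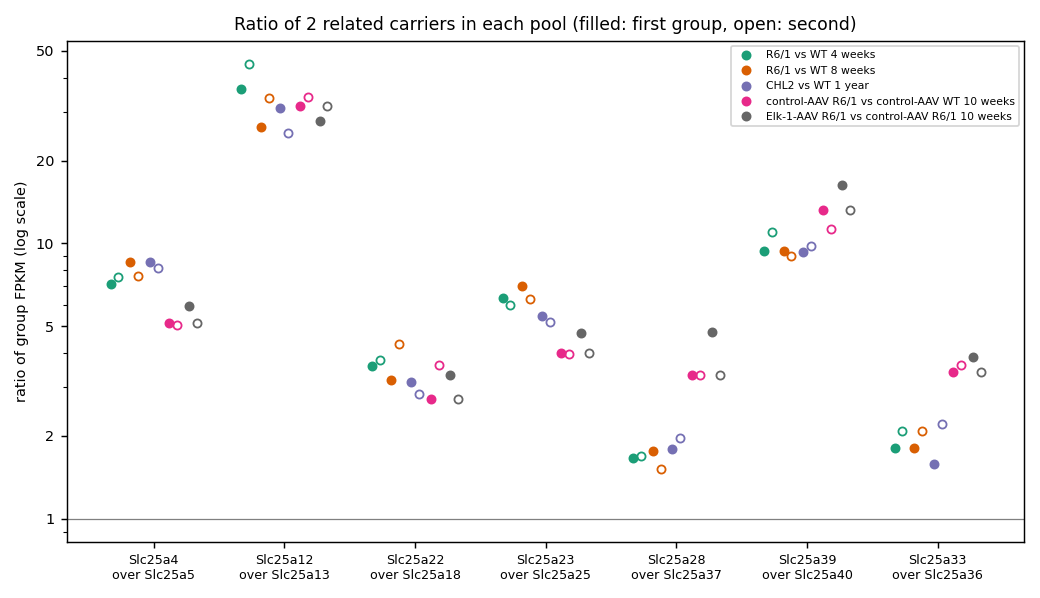
Ratio of group FPKM of 2 related carriers (y axis, log scale) for 7 pairs (x axis) in each pool, coloured by comparison, filled for its first-named and open for its second-named group. All ratios lie above 1, and those of Slc25a4 over Slc25a5 are lower in the AAV pools (5.08 to 5.91) than in the others (7.11 to 8.58).

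The direction of the members was followed through the 4 genotype tables (R6/1 at 4 weeks and 8 weeks, CHL2, and control-AAV R6/1), which the labels give as separate libraries. Lower values in the model in all 4 were found for 6 of 37 members, against 12.8% of 12853 genes: Slc25a3, Slc25a14, Slc25a23, Slc25a25, Slc25a33 and Slc25a37. Rescaled without small RNA rows, an alternative added after seeing the data, this held for Slc25a25 and Slc25a37 only, 2 of 37, against 6.94% of genes. Higher values in all 4 were found for Slc25a32 and Slc25a38, 2 of 37, against 13.9% of genes, and for 8 of 37 after that rescaling, against 27.8%. In CHL2 the lower value was in the model for 27 of 38 members (71.1%, against 49.4% of genes), and after rescaling for 13 (34.2%, against 32.6%). At 8 weeks it was 14 of 39 (35.9%, against 48.7%) and after rescaling 9 (23.1%, against 33.9%). The change followed transcript length in CHL2 (Spearman 0.51 across 38 members, 0.39 across 14136 genes) and at 4 weeks (0.33 and 0.48), with short transcripts lower in the models. At 8 weeks it was -0.19 and -0.11, and between the control-AAV groups -0.20 and -0.058. Genes of 1 pair of pools share their libraries, so these are descriptions, and the part of transcript length in any member's change was not tested.

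Other markers moved in the same comparisons. At 8 weeks 5 of 7 choroid plexus markers fell (584 FPKM summed in R6/1 and 1516 in WT mice), as did 4 of 6 cortical excitatory markers (200 and 317). In control-AAV R6/1 mice 3 of 7 choroid plexus markers rose (1581, against 343 in control-AAV WT mice) and 4 of 6 cortical markers fell (316, against 601). At 4 weeks 3 of 7 hypothalamic and septal markers and 2 of 10 projection neuron markers fell in R6/1 mice (53.3 against 119 and 2325 against 2999 FPKM summed in WT mice). In CHL2 2 of 7 oligodendrocyte markers fell (3239, against 4696 in WT mice). In CHL2 6 of 7 hypothalamic and septal markers rose (174 FPKM summed, against 77.3 in WT mice), and 5 of the 6 listed rose in control-AAV R6/1 mice (363, against 68.7 in control-AAV WT mice). For Elk-1 AAV 3 of those 6 fell (38.9 FPKM summed, against 372 in control-AAV R6/1 mice), while 1 of 7 choroid plexus markers and the microglial genes C1qa, C1qb and C1qc rose. Both AAV comparisons use the same control-AAV R6/1 pool of 2 libraries, so a high or low value in it moves both. At 8 weeks 1 of 7 hypothalamic and septal markers rose (30.2, against 18.1 in WT mice). No microglial or endothelial marker was called in the 4 genotype tables. The part of these cell types in the values of the carriers was not tested.

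Family members listed under other symbols were read the same way. Of 47 protein-coding Slc25a genes in RefSeq, 2 appear under older names, Mcart1 (Slc25a51, an NAD carrier) and Mcart6 (Slc25a53), and 6 have no row: Slc25a2, Slc25a31, Slc25a41, Slc25a43, Slc25a48 and Slc25a54. With the uncoupling proteins Ucp2 and Ucp3 and the outer membrane proteins Mtch1 and Mtch2 they make 6 listed relatives, of which 0 were called in any of the authors' deposited tables (1 at an unadjusted p below 0.05). Ucp2, which lowers the proton gradient and is found in glia and neurons, came nearest: 6.65 FPKM in control-AAV R6/1 mice and 3.59 in control-AAV WT mice (log2 fold change 0.89, p = 0.00235, q = 0.0663 in the authors' deposited table). Mtch1 was the most abundant, with 230 FPKM in R6/1 mice and 254 in WT mice at 8 weeks.

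Around the carriers, 58 genes of mitochondrial transport were examined: the pyruvate carrier, VDAC and sideroflexins, the calcium uniporter, the TIM and TOM import machinery, shuttle enzymes, carnitine acyltransferases and regulators of mitochondrial biogenesis. At 8 weeks 2 of 58 fell and 0 rose, 1 of 57 rose in CHL2 mice, 1 of 56 fell in control-AAV R6/1 mice, and 0 of 58 at 4 weeks and 0 of 55 for Elk-1 AAV were called. At an unadjusted p below 0.05 in the authors' deposited tables there were 2 such genes at 4 weeks, 3 at 8 weeks, 5 for CHL2, 3 for control-AAV R6/1 and 2 for Elk-1 AAV. Called were 3.45% of the list at 8 weeks, 1.75% in CHL2 and 1.79% in control-AAV R6/1 mice, beside 6.12%, 3.65% and 3.24% of all genes. With 1 or 2 genes called, these shares cannot be told from those of all genes. At the unadjusted p the shares were 3.45%, 5.17%, 8.77%, 5.36% and 3.64%, against 5.36%, 14.3%, 13.3%, 10.7% and 4.91% of all genes. The called genes were Gpd1, Gpd2 and Ppargc1b.

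Gpd1, the cytosolic enzyme of the glycerophosphate shuttle, had 19.0 FPKM in R6/1 mice and 41.1 in WT mice at 8 weeks (log2 change -1.11 with q = 0.00160 in the authors' deposited table). Between the control-AAV groups Gpd1 had 26.1 FPKM in R6/1 mice and 47.1 in WT mice (log2 change -0.85 with q = 0.00312 in the authors' deposited table). In brain Gpd1 is strong in oligodendrocytes. Of 7 oligodendrocyte markers 0 were called in either comparison, while all 7 had lower values in R6/1 mice at 8 weeks and all 7 higher values in control-AAV R6/1 mice. Their sums were 3907 FPKM in R6/1 and 4763 in WT mice at 8 weeks, and 4544 in control-AAV R6/1 and 4125 in control-AAV WT mice. The part of oligodendrocytes in the values of Gpd1 was not tested. With Elk-1 AAV Gpd1 had 34.3 FPKM, against 26.8 in control-AAV R6/1 mice (p = 0.0426, q = 0.959 in the authors' deposited table), and did not pass.

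Gpd2, the mitochondrial partner of Gpd1, rose in CHL2 to 24.4 FPKM, against 18.9 in WT mice (log2 change 0.37 with q = 0.0386 in the authors' deposited table). Ppargc1b, a coactivator of mitochondrial biogenesis, fell at 8 weeks to 3.82 FPKM in R6/1 mice, against 5.55 in WT mice (log2 change -0.54 with q = 0.0392 in the authors' deposited table). Its relative Ppargc1a had 10.9 FPKM in R6/1 mice and 9.83 in WT mice at that age and was not called. The pyruvate carrier subunits Brp44l (Mpc1) and Brp44 (Mpc2) had 10.4 and 62.4 FPKM in R6/1 mice, against 9.48 and 61.9 in WT mice. The uniporter pore gene Ccdc109a (Mcu) had 14.4 FPKM in R6/1 mice and 13.4 in WT mice at 8 weeks, and the outer membrane channel Vdac1 had 217 and 224.

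Levels in the WT pools can be set side by side by age, as a description without a test: their tables were normalized separately, each age has 1 pooled value, and the 1-year pool is the control of the CHL2 line, so age and line cannot be told apart. From 4 weeks through 8 weeks to 1 year, Slc25a13 had 1.46, 1.97 and 2.70 FPKM and Slc25a27 had 19.2, 20.6 and 26.0. Slc25a28 had 18.7, 18.4 and 25.6 FPKM, and Slc25a22 had 95.5, 89.6 and 78.6. The WT pool at 1 year was above that at 4 weeks for 32 of 38 members (84.2%), against 65.7% of 14152 genes, with a median fold of 1.08 over the members and 1.06 over all genes.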

How the data were processed

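Striatal RNA was sequenced from TruSeq libraries (per the labels' protocols). Cuffdiff, Cufflinks, TopHat, Bowtie and the build mm9 are listed, with no version, per the submitters' processing notes; no annotation or strand setting is given there. Deposited by the authors were 5 tables of 14539, 14320, 14402, 12980 and 12701 genes. Each holds 1 FPKM value per group, a log2 fold change made by the authors from these values, their test statistic (a score), and a p-value and q-value from the authors' test. Benjamini-Hochberg values computed here from the p-values match the q-values (within 0.001), and the lowest p-value is 5e-05. No value per library is given, so depth is unknown and no fit over libraries was made.

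Groups follow the sample titles. Calls are the authors' q below 0.05. Median changes use log2(FPKM + 1) where the mean of the groups is 0.5 FPKM or more; the added 1 understates changes of low genes. The implied error of a fold change is its size divided by the normal quantile of its p-value, an assumption that is poor for p-values near 1; intervals are 1.96 errors wide on each side. This was added after seeing the data and makes no call. Transcript length is the longest in GENCODE M21 (GRCm38), known for at least 98.8% of genes of a table; positions are as listed on mm9, and promoter windows are RefSeq's on GRCm38.p6. The members and gene lists were chosen with earlier results of these data known. Every member could be named by the rule, but 1 is not reported here by name and is left out of the plots, while the counts and medians include it; group values go to members called in any table, the 5 most abundant, and the 3 largest rises and falls per comparison at a mean of at least 1 FPKM. Counting, adjustment and medians were tested on simulated data. Python 3.11.15, pandas 2.3.3, numpy 2.4.6, SciPy 1.17.1 and matplotlib 3.10.9 were used.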

Additional observations from a re-analysis of the deposited data

How the results depend on the processing

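The counts of called members (0, 1, 0, 0 and 0 for the 4-week, 8-week, CHL2, control-AAV and Elk-1 AAV tables) were recomputed at a q below 0.1 and with the adjustment over genes averaging 0.5 or 2 FPKM and more only, and gave the same numbers. At an unadjusted p below 0.05 they were 1, 4, 2, 0 and 0. Leaving out members whose position overlaps another gene's took the count at 8 weeks to 0, since Slc25a25 shares its position with Naif1. The median change stayed between -0.016 and 0.019 at 4 weeks, 0.032 and 0.12 at 8 weeks, -0.047 and 0.036 in CHL2, -0.056 and 0.022 between the control-AAV groups and -0.030 and 0.026 for Elk-1 AAV, under another pseudocount (0.1 or none), no filter or one at 2 FPKM, subtraction of the median of all genes, and rescaling without small RNA rows. Added after seeing the data, that rescaling took the members lower in all 4 genotype tables to 2 of 37 (6 as deposited), those higher in all 4 to 8 (2), and those lower in CHL2 to 13 of 38 (27) and at 8 weeks to 9 of 39 (14). It shifts log2 values by 0.035, 0.081, 0.082, 0.064 and -0.056. No paired analysis was possible because the tables hold 1 value per group, and for the same reason leaving out each replicate was not run. Depth per library is unknown, and the AAV comparisons rest on groups of 2 and 4 libraries.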

Other observations

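The control-AAV WT pool (10 weeks) and the untreated WT pool (8 weeks) come from separate tables, so age, injection, library set and normalization cannot be told apart between them. Slc25a5 had 158 FPKM in control-AAV WT mice and 65.2 in untreated WT mice, Slc25a4 had 802 and 496, and Slc25a11 had 99.6 and 61.7. In the other direction Slc25a30 had 1.73 and 3.97 FPKM, Slc25a32 had 1.91 and 3.49, and Slc25a23 had 118 and 165. The median fold over 37 members was 1.13, against 1.07 over 12868 genes. The fold ran with transcript length, shorter transcripts being higher in the control-AAV WT pool (Spearman -0.54 across the 37 members and -0.64 across all genes, which share these 2 pools). The ratio of Slc25a4 to Slc25a5 was 5.08 in the control-AAV WT pool and 7.61 in the untreated WT pool, and the part of transcript length in it was not tested.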
